A study of Mus musculus with 16 samples.

Results

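The 8 arrays described here are the 4 arrays of organotypic SCN slices collected 2 h after VIP (CT12 VIP) and the 4 arrays of slices collected 2 h after vehicle (CT12 Veh), out of 16 arrays in the series. They were chosen by their labels alone. All slices came from C57BL/6J mice aged P8 to P11, were kept in culture as slices of the suprachiasmatic nucleus, the hypothalamic clock, and were placed in medium with luciferin for bioluminescence recording. At CT10, 2 h before the circadian time called CT12, they received VIP (1 µM in the labels, although the study's methods give a higher dose) or vehicle, which was recording medium. The other 8 arrays hold untreated slices collected at CT10 and slices collected 6 h after VIP. The labels do not tie slices to animals, so the p-values measure only the spread between these slices, which may be technical.

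VIP (vasoactive intestinal peptide) is a peptide of SCN core neurons that synchronises the cells of the nucleus. Its receptor VPAC2 couples to Gs, so that VIP can raise cAMP and activate protein kinase A and ERK. Such signals can lead to phosphorylation of CREB, which binds cAMP response elements in promoters. In the study, inhibitors of protein kinase A or of CREB, given singly, did not significantly change the circadian response to VIP. That response was read from PER2::LUC bioluminescence, and an ERK inhibitor reduced it. Transcription driven by cAMP and ERK is limited by feedback, because many early targets encode inhibitors of cAMP, calcium and ERK signals. A slice also holds astrocytes, microglia, oligodendrocytes and the ciliated ependymal cells that line the third ventricle, and the arrays measured their RNA together.

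Amplified RNA was measured on Illumina MouseWG-6 v2 BeadChips. The values are the authors' variance-stabilised and quantile-normalised signals for these 8 arrays. Their scale is near log2 for bright probes and narrower for dim ones. A difference below is CT12 VIP minus CT12 Veh on this scale, with its standard error (SE) and the adjusted p of limma over 17605 probes. Rose and fell are used of an adjusted p under 0.05, and the probe of highest mean signal stands for a gene. The arrays had 8844 to 15326 detected probes (detection p of 0.01 or less), with 1 array of each group (CT12 Veh 1 and CT12 VIP 1) under 10000. A probe that no array of a group detected has only a bound there. Such a gene is given as at least N-fold. This bound sets the brighter group's mean against a floor in the dimmer group, which is, for each array, the lowest detected value or the probe's own where higher.

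After 2 h of VIP, 480 probes (2.73%) were higher and 258 (1.47%) were lower than in vehicle. Of the 9619 named genes, 273 (2.84%) rose and 194 (2.02%) fell. Each count of called genes in a list below is to be read against these 2 shares. At an unadjusted p under 0.05, 669 of the 9619 genes were higher and 970 were lower. List counts at that threshold are to be read against these. The rises were larger than the falls. The median rise was 0.43 and 33 genes rose by more than 1, whereas the median fall was -0.31 and the largest was -0.85. The levels of the 2 groups did not overlap, with CT12 VIP above, for 439 genes (4.56%) and, with CT12 VIP below, for 594 genes (6.18%), and 437 of the 467 changed genes were among these. The median difference of all genes was -0.02. Of the genes that rose, 54 were not detected on any vehicle array, and 8 of those that fell were not detected on any CT12 VIP array. On background-corrected values (neqc), where dim probes are less compressed, all 467 kept their direction, but 183 of the rises and 71 of the falls passed. When each array was left out in turn, 192 of the rises and 78 of the falls passed in every case. The immediate early genes (16 of 22 measured rose), the clock genes (5 rose and 2 fell of 17, but 3 and 1 on neqc values and without CT12 Veh 1, CT12 Veh 2, CT12 VIP 2 or CT12 VIP 4, with 1 fall also without CT12 Veh 4 or CT12 VIP 3) and the dual specificity phosphatases (4 of 14 rose) held 27 of the changed genes and are named below only where a promoter, marker or single array concerns them. List members named below beyond the 3 with the largest change in a list, and those that did not pass, were named after their values were seen.

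**Figure D1:**
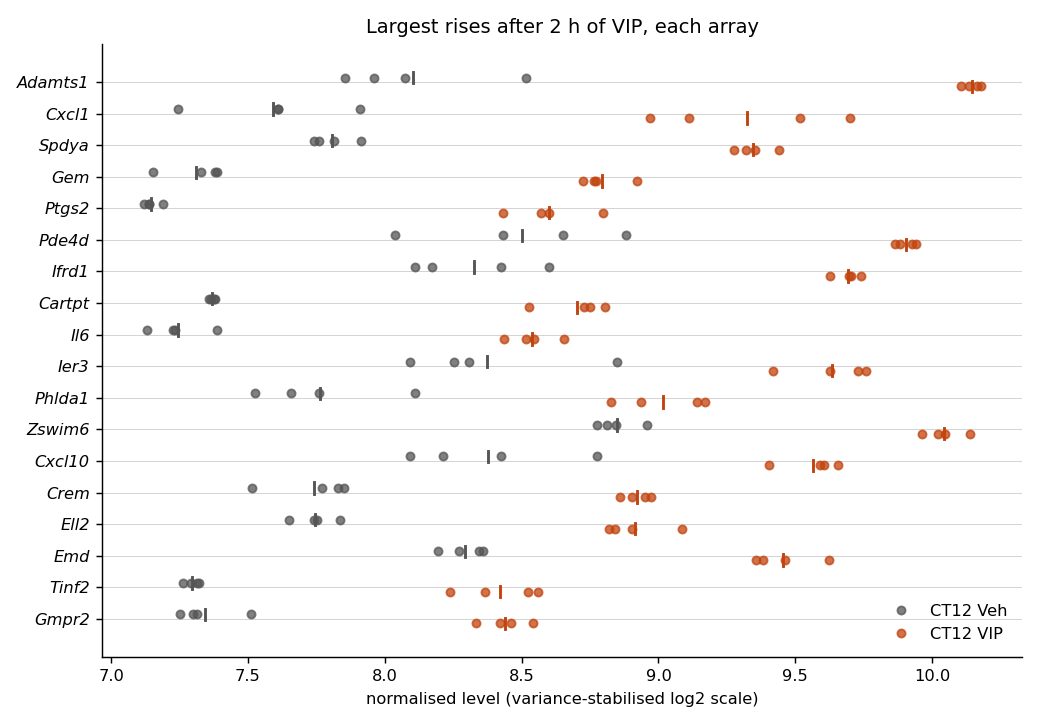
Each row is 1 of the 18 largest rises outside the immediate early, clock and Dusp genes. Points are the 4 arrays of CT12 Veh (grey) and of CT12 VIP (orange), vertical bars are group means, and the horizontal axis is the normalised level on a variance-stabilised log2 scale. In every row all 4 CT12 VIP arrays lie to the right of all 4 vehicle arrays, because only genes with groups that do not overlap were eligible.

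Several genes of inflammatory signalling rose after VIP. Of 26 measured genes of chemokines, cytokines and their signalling, 10 rose and 0 fell, with a median difference of 0.11 over the list, against 2.84% of all genes that rose. Cxcl1, a chemokine that attracts neutrophils, stood at 7.61, 7.91, 7.61 and 7.24 on CT12 Veh arrays 1 to 4 and at 9.70, 8.97, 9.52 and 9.11 on CT12 VIP arrays 1 to 4. It rose by 1.73 (SE 0.138, adjusted p = 8.4e-08). Il6, a cytokine that signals through gp130 and Stat3, was at 7.13, 7.39, 7.23 and 7.23 in vehicle, where no array detected it, and at 8.52, 8.43, 8.55 and 8.65 after VIP, at least 1.90-fold higher (adjusted p = 4.7e-10). The groups were well apart for both genes. Cxcl10, a chemokine for T cells, rose by 1.19 (SE 0.108, adjusted p = 4.7e-07) from 8.43, 8.78, 8.09 and 8.21 to 9.66, 9.59, 9.60 and 9.40. Socs3, the feedback inhibitor that cytokines of the Il6 family induce, rose by 1.03 (SE 0.0911, adjusted p = 3.3e-07). Cxcl2 was at least 1.37-fold higher (adjusted p = 3.19e-06). The monocyte chemokines were less evenly apart. Ccl7, Ccl4 and Ccl2 rose by 0.71, 0.69 and 0.51 (adjusted p = 0.0343, 0.0101 and 0.016) with arrays that overlapped, because CT12 Veh 2 lay above the other vehicle arrays for each. All 3 calls were lost on neqc values and without CT12 Veh 3 or CT12 Veh 4, that of Ccl7 also without CT12 VIP 1, 2 or 3 and that of Ccl2 also without CT12 VIP 2 or 3 (with an adjusted p of up to 0.142). Osmr, the oncostatin M receptor, was at least 1.03-fold higher and Stat3 rose by 0.29 (adjusted p = 0.0123 and 0.0316). The call of Stat3 was lost on neqc values and without CT12 Veh 1, CT12 Veh 2, CT12 Veh 3, CT12 VIP 1 or CT12 VIP 3 (with an adjusted p of up to 0.104), and that of Osmr without CT12 Veh 3 or CT12 VIP 2 (up to 0.0528). The other 16 members did not pass, among them the cytokines Il1b, Il18 and Il33 with differences of 0.12, -0.01 and 0.06. The count of 10 was 6 on neqc values and 5 without CT12 Veh 3. None of the 8 measured microglia markers rose (median difference -0.03), and their summed neqc signal was 966 to 1160 in CT12 Veh and 848 to 1100 in CT12 VIP.

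Ptgs2, which encodes the inducible cyclooxygenase of prostaglandin synthesis, was close to background on the vehicle arrays (7.14, 7.12, 7.19 and 7.14) and reached 8.80, 8.60, 8.57 and 8.43 after VIP. It was at least 1.98-fold higher (adjusted p = 1.5e-10), and its second probe rose by 0.37. No other of the 6 measured genes of prostaglandin synthesis and receptors passed. Among 10 measured genes of NF-kB feedback and mRNA decay, 5 rose and 2 fell (median 0.32), and 3 rose without the 2 arrays under 10000 detected probes. Nfkbiz, a nuclear IkB protein that helps induce Il6, rose by 0.86 (SE 0.0711, adjusted p = 1.4e-07), from 7.86 to 8.15 in vehicle to 8.81 to 8.97 after VIP. Tnfaip3, the A20 inhibitor of NF-kB, was at least 1.06-fold higher (adjusted p = 0.00062), with CT12 Veh 2 above the other vehicle arrays. Zfp36l1, which destabilises AU-rich mRNAs, rose by 0.54 (SE 0.0821, adjusted p = 0.00027), and Nfkbie and Nfkb1 were at least 1.14-fold and 1.04-fold higher. The 2 that fell were Traf1 (-0.31) and Bcl6 (-0.26). Their calls were lost on neqc values (adjusted p = 0.057 and 0.07), that of Traf1 also without CT12 Veh 4 or CT12 VIP 2, and that of Bcl6 without CT12 Veh 2, CT12 Veh 3 or CT12 VIP 2, 3 or 4 (up to 0.0955). The interferon-stimulated genes gave 0 rises and 0 falls of 23 measured by limma (6 higher at an unadjusted p under 0.05), with a median of 0.07.

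Some genes that limit a cAMP signal rose with VIP. Of 22 measured phosphodiesterases and PKA subunits or anchors, 4 rose (18.2%, against 2.84% of all genes) and 0 fell (median 0.02). Of the 4, 3 were the measured members of the Pde4 family, the enzymes specific for cAMP. Pde4d stood at 8.04, 8.43, 8.65 and 8.88 in CT12 Veh and at 9.88, 9.94, 9.93 and 9.87 in CT12 VIP. The vehicle arrays were widely spread, while the CT12 VIP arrays lay close together above all of them. The rise was 1.40 (SE 0.118, adjusted p = 1.7e-07) for 1 probe, whereas its other probe had a difference of 0.18. Pde4b rose by 0.73 (SE 0.089, adjusted p = 2.2e-05) and Pde4a by 0.71 (SE 0.0798, adjusted p = 9.2e-06), the latter from 7.60 to 7.78 in vehicle to 8.11 to 8.51 after VIP. Akap12, a scaffold for protein kinase A, rose by 0.28 (adjusted p = 0.0289), a call lost on neqc values and without any array but CT12 Veh 2 or 4 (with an adjusted p of up to 0.105). The subunits of protein kinase A itself (Prkaca, Prkacb, Prkar1a, Prkar1b, Prkar2a and Prkar2b) had differences between -0.20 and 0.13, and none passed.

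Crem, whose short ICER products repress cAMP-driven transcription, rose by 1.18 (SE 0.0742, adjusted p = 2.8e-09). Its vehicle arrays stood at 7.52, 7.83, 7.77 and 7.85 and its CT12 VIP arrays at 8.95, 8.86, 8.97 and 8.90, and its other 2 probes rose by 0.57 and 1.27. Of 17 measured CREB, CREM and ATF factors and coactivators, 3 rose and 0 fell (median 0.02). The others were Cebpb (0.52, SE 0.074, adjusted p = 0.00013) and Cebpd (0.25, SE 0.0693, adjusted p = 0.045), basic leucine zipper factors, and the call of Cebpd was lost on neqc values and without any array but CT12 Veh 3 (with an adjusted p of up to 0.142). Sik1, a kinase that holds CREB coactivators out of the nucleus, rose by 0.79 (SE 0.0701, adjusted p = 3.5e-07) from 7.57, 7.74, 7.44 and 7.56 to 8.38, 8.41, 8.39 and 8.28. The study, in contrast, names Sik1 as a light-induced regulator without a response to VIP. Sik1 was 1 of 3 of the 17 measured salt-inducible and stimulus-induced kinases that rose, with Plk2, a polo-like kinase induced by neuronal activity (0.56, SE 0.066, adjusted p = 1.5e-05), and Sik2 (adjusted p = 0.017, up to 0.0698 without CT12 Veh 4, CT12 VIP 2 or CT12 VIP 4), which no vehicle array detected.

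The promoters of the genes that rose were searched for the cAMP response element, because CREB and Crem bind it. The study itself reported such elements near the TATA box to be enriched among genes upregulated after 2 h. Because its CREB inhibitor left the response to VIP unchanged, it proposes that other factors, such as CREM or ATF3, may act there. The RefSeq promoters (GRCm38.p6) run from 250 bases before a gene's start to 50 after it. The full element, TGACGTCA on either strand, was in the promoters of 22 of 207 genes that rose and have one in the table (10.6%), of 2 of 159 that fell (1.26%) and of 294 of 7628 tested genes (3.85%). A gene was counted if any of its promoters held the element. Genes that rose, fell and were tested had 1.37, 1.33 and 1.29 promoters on average. Over all 32851 promoters of the table, counted singly, the share was 1.79%. The shorter core TGACG, which the full element contains, was in 58.0% of the genes that rose, 28.3% of those that fell and 36.8% of those tested. The AP-1 site TGANTCA, bound by Fos and Jun proteins, was in 12.6%, 5.03% and 6.03%, respectively (7.81% of all promoters), and the E-box CACGTG in 14.5%, 11.9% and 11.7% (7.15%). A match of letters is a description and shows no binding. Of the 66 named genes that rose, 50 had a promoter in the table and 5 of these held the full element. They are Dusp1, Cartpt, Ell2, Tinf2 and Plk2. Shown are up to 40 bases on each side of the element, 5′ to 3′ along the gene's strand, with the element in capitals, so that its setting in each gene can be compared.
Dusp1 (chr17:26508568-26508655, minus strand): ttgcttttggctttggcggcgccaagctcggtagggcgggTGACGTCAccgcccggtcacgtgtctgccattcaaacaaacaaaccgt
Cartpt (chr13:99900748-99900835, minus strand): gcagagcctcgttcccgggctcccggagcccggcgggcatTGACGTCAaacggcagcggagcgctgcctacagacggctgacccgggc
Ell2 (chr13:75707246-75707333, plus strand): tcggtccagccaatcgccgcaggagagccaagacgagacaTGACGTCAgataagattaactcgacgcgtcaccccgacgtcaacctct
Tinf2 (chr14:55681826-55681913, minus strand): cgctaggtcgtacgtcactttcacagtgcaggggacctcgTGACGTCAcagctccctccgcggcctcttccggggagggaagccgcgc
Plk2 (chr13:110394942-110395029, plus strand): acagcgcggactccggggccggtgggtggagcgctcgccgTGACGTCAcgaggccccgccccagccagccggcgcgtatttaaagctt
The element begins 143 bases before the start of Dusp1, 112 before that of Cartpt, 198 before that of Ell2, 56 before that of Tinf2 and 62 before that of Plk2.

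Gem and some inhibitors of ERK signalling were also higher. Gem, a Ras-like GTPase that blocks voltage-gated calcium channels, was detected on no vehicle array (7.39, 7.38, 7.15 and 7.33) and on all 4 arrays after VIP (8.77, 8.72, 8.77 and 8.92), at least 2.27-fold higher (adjusted p = 8.6e-11). Of 17 measured RGS proteins and Ras-like GTPases, 4 rose and 0 fell (median 0.03). The other rises were Rasl11b (0.49, adjusted p = 0.033), Rasl11a (at least 1.01-fold, adjusted p = 0.0062) and Rgs2 (adjusted p = 0.0028), a regulator of G proteins that no vehicle array detected. The arrays of Rasl11b overlapped, and its call was lost on neqc values and without any array but CT12 Veh 3, CT12 Veh 4 or CT12 VIP 1 (with an adjusted p of up to 0.132). Among 16 measured genes of Sprouty, Spred and other ERK feedback, 5 rose (31.25%, against 2.84% of all genes) and 0 fell (median 0.10). Ier3, an early gene linked to ERK signalling and survival, rose by 1.26 (SE 0.119, adjusted p = 8e-07) from 8.31, 8.85, 8.25 and 8.09 to 9.73, 9.63, 9.76 and 9.42, again with CT12 Veh 2 the highest vehicle array. Phlda1, Spry2, an inhibitor of receptor tyrosine kinase signalling, and Errfi1, an inhibitor of the EGF receptor, rose by 1.25, 0.85 and 0.56 (adjusted p = 1.4e-07, 1.4e-07 and 0.000173). Spred1, Spred2 and Spry4, of the same families, had differences of -0.19, 0.21 and 0.13 and did not pass.

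Several secreted proteins and peptide precursors rose. Adamts1, a protease that cleaves the proteoglycans of the extracellular matrix, stood at 8.07, 8.52, 7.86 and 7.96 in CT12 Veh and at 10.13, 10.11, 10.16 and 10.18 in CT12 VIP. It rose by 2.04 (SE 0.102, adjusted p = 1.5e-10), the largest rise outside the immediate early genes, and its other 2 probes rose by 0.80 and 1.93. Of 42 measured genes of the extracellular matrix, integrins and matrix proteases, 5 rose (11.9%, against 2.84% of all genes) and 0 fell (median 0.00). Of the 5, 3 were Adamts proteases. Adamts4 rose by 0.89 (SE 0.0985, adjusted p = 6.5e-06) and Adamts9 was at least 1.13-fold higher (adjusted p = 0.00053). The others were Has2, a hyaluronan synthase, and Timp1, an inhibitor of matrix proteases (adjusted p = 0.00906 and 0.0357), which were detected on 0 vehicle arrays and 2 CT12 VIP arrays and have no fold. The call of Timp1 was lost without any array but CT12 VIP 2 or 3 (with an adjusted p of up to 0.108). In contrast, Vcan and Bcan, the proteoglycans versican and brevican, had differences of 0.20 and -0.04 and did not pass.

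Cartpt, the precursor of the CART peptides, was detected on no vehicle array (7.36, 7.38, 7.36 and 7.37) and reached 8.53, 8.73, 8.75 and 8.80 after VIP, at least 2.13-fold higher (adjusted p = 1.5e-10), with its second probe higher by 1.15. Vgf, a secreted neuropeptide precursor, rose by 0.60 (SE 0.064, adjusted p = 3.8e-06). These were the 2 rises, with 0 falls, among 20 measured neuropeptide precursors and granins (median 0.09). Vip itself had a difference of 0.40 (adjusted p = 0.367), with 8.06, 8.86, 9.51 and 9.29 in vehicle and 9.08, 9.41, 9.32 and 9.51 after VIP, and Avp, Grp and Nms had differences of 0.13, 0.13 and 0.08. Of 15 genes of peptide processing and dense core vesicles, Syt4, a synaptotagmin of such vesicles, rose (0.32, SE 0.0656, adjusted p = 0.0061), a call lost on neqc values. Of 17 secreted growth factors, 4 rose and 0 fell (median 0.08). Hbegf, a ligand of the EGF receptor, rose by 0.47 (SE 0.0657, adjusted p = 0.00011), Stc1, a secreted glycoprotein, was at least 1.14-fold higher (adjusted p = 0.00025), Ccn1, a matricellular protein, had 0.30 (adjusted p = 0.041) and Fgf2 0.28 (adjusted p = 0.0235). The call of Ccn1 was lost on neqc values and without any array but CT12 Veh 1 or CT12 VIP 1 (with an adjusted p of up to 0.157), and that of Fgf2 without CT12 Veh 2, CT12 Veh 3 or CT12 VIP 1 or 2 (up to 0.086). The count of 4 was 2 without CT12 Veh 2, CT12 Veh 3 or CT12 VIP 2.

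**Figure D2:**
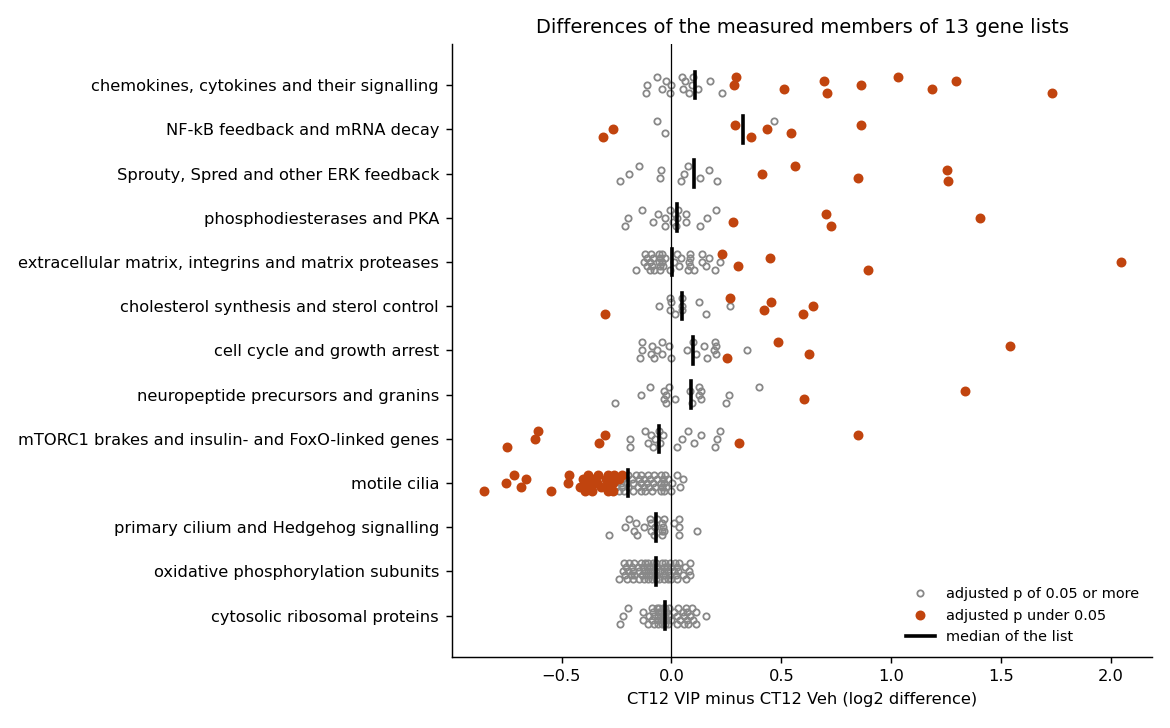
Each point is a measured gene of 1 of 13 lists, placed by its log2 difference (CT12 VIP minus CT12 Veh). Filled points have an adjusted p under 0.05, open points do not, and black bars are list medians. Most called points of the upper lists lie to the right of 0, 29 of the motile cilia genes lie to the left, and the lists of ribosomal proteins and oxidative phosphorylation have no called point.

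Metabolic genes were examined next. Of 17 measured genes of cholesterol synthesis and sterol control, 5 rose and 1 fell (median 0.05), and the 5 were 3 on neqc values. Hsd17b7 and Pmvk, enzymes of the pathway, stood at 9.59 to 9.74 and 8.14 to 8.44 in vehicle and at 10.06 to 10.44 and 8.76 to 9.004 after VIP. Msmo1, another enzyme, rose by 0.46 (SE 0.0746, adjusted p = 0.00064), and Cyp51, which demethylates lanosterol, by 0.27 (adjusted p = 0.0378), a call lost on neqc values and without any array but CT12 Veh 2 or CT12 VIP 2. Insig1, which restrains the pathway, rose by 0.42 at its brightest probe and by 0.32 to 0.39 at its other 3 (adjusted p = 0.0949 on neqc values), and Srebf1, a transcription factor of lipid synthesis, fell by 0.30 (adjusted p = 0.0368), a call lost on neqc values and without any array but CT12 Veh 2, CT12 Veh 3 or CT12 VIP 3 (with an adjusted p of up to 0.132). The sterol element TCACNCCAC was in a promoter of 1.45% of the genes that rose and of 1.44% of those tested (1.24% of all promoters). Of 32 genes of glycogen and glucose metabolism, 2 rose (6.25%, against 2.84% of all genes) and 0 fell (median 0.02). Both encode glycogen-targeting subunits of protein phosphatase 1. Ppp1r3c rose by 1.03 (SE 0.0808, adjusted p = 6.7e-08), from 9.20, 9.41, 9.35 and 9.37 to 10.58, 10.17, 10.30 and 10.42, and Ppp1r3g was at least 1.02-fold higher (adjusted p = 0.0019), on 2 detected arrays of 4. The 16 genes of polyamine, methionine and one-carbon metabolism (median -0.02), the 69 subunits of oxidative phosphorylation (median -0.07) and the 52 cytosolic ribosomal proteins (median -0.03) gave 0 rises and 0 falls by limma. At an unadjusted p under 0.05, 16 of the oxidative phosphorylation genes and 3 of the ribosomal ones were lower, against 970 of all 9619 genes.

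The other large rises were of diverse genes. Spdya, which activates cyclin-dependent kinases, went from 7.91, 7.76, 7.82 and 7.74 to 9.32, 9.28, 9.44 and 9.35 (1.54, SE 0.065, adjusted p = 1.9e-11). Its other 3 probes had differences between -0.04 and 0.02, so the rise belongs to 1 of 4 probes. Ifrd1, a transcriptional coregulator, rose by 1.36 (SE 0.0879, adjusted p = 3.9e-09), Zswim6, a zinc finger protein, by 1.20 (SE 0.0655, adjusted p = 4.7e-10) at its brightest probe and by 0.60 and 0.70 at the other 2, and Ell2, an elongation factor of RNA polymerase II, by 1.17 (SE 0.071, adjusted p = 1.9e-09). Zswim6 stood at 8.78, 8.85, 8.81 and 8.96 in CT12 Veh and at 10.02, 10.14, 9.96 and 10.05 in CT12 VIP. Emd, which encodes the inner nuclear membrane protein emerin, rose by 1.16 (SE 0.0707, adjusted p = 1.9e-09), with a second probe at 1.25. Tinf2, a telomere-binding protein of the shelterin complex, and Gmpr2, a GMP reductase, were undetected in vehicle and at least 1.75-fold and 1.78-fold higher (adjusted p = 3.9e-09 and 4.1e-09). The 2 genes overlap in the RefSeq annotation, so their signals may not be separate.

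The remaining lists held few changed genes, and some were near the 2.84% of all genes that rose. The shares that rose were 3.70% for the heat shock list, 2.17% for the ion channels and 4% for the hypothalamic transcription factors. Of 25 measured genes of cell cycle and growth arrest, 4 rose and 0 fell (median 0.10), namely Spdya, Ccnd3, a D-type cyclin (0.63, SE 0.0695, adjusted p = 7.2e-06), Btg1, an antiproliferative gene (0.48, adjusted p = 0.0064, lost on neqc values), and Gadd45g (0.25, adjusted p = 0.0327). The call of Gadd45g was lost on neqc values and without any array but CT12 Veh 2, CT12 Veh 3 or CT12 VIP 1 (with an adjusted p of up to 0.107). Of 22 tropomyosins and SRF-linked actin genes, 3 rose and 0 fell (median 0.02). The tropomyosins Tpm4 and Tpm3 rose by 0.84 and 0.41 (adjusted p = 1.3e-06 and 0.00038), and Thbs1, thrombospondin 1, was at least 1.09-fold higher (adjusted p = 3.8e-05). Bag3, a cochaperone, rose by 0.95 (SE 0.0783, adjusted p = 1.4e-07) as the only call among 27 heat shock, chaperone and cold-inducible genes (median -0.02). Of 22 activity-regulated synaptic genes, Nptx1, a neuronal pentraxin, was at least 1.12-fold higher (adjusted p = 0.00058) and Syt4 rose (median 0.05). Of 46 ion channels, Kcnk1, a potassium leak channel, rose by 0.40 (SE 0.0705, adjusted p = 0.0013), and the median was 0.00. Of 8 gap junction genes, Gjb2 was at least 1.19-fold higher (adjusted p = 0.0017; median -0.03). Of 25 SCN and hypothalamic transcription factors, Sox21 rose by 0.58 (SE 0.0802, adjusted p = 0.0001; median 0.00). The 20 GABA, glycine and glutamate receptors gave 0 calls by limma (2 higher and 1 lower at an unadjusted p under 0.05; median 0.01). Of 18 BMP, Notch and Wnt response genes, Id2, which blocks helix-loop-helix factors, fell by 0.32 (SE 0.0627, adjusted p = 0.0041; median -0.02), a call lost on neqc values.

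The motile cilia list held more falls than any other of the 33 lists. Motile cilia beat by means of axonemal dyneins, radial spokes and the dynein regulatory complex, and in the brain they are borne by ependymal cells. Of 75 measured genes of the list, 29 fell and 0 rose, with a median difference of -0.20, against 2.02% of all genes that fell. For 39 of the 75 all CT12 VIP arrays lay below all vehicle arrays (6.18% of all genes), and 71 of the 75 differences were below 0 (58.3% of all genes). Of these genes, 7 had been named among the falls by an earlier analysis of the same data (Spef1, Ubxn10, Ccdc190, Fam216b, Smim5, Tmem212 and Rarres2), and the list holds Smim5 as one of these, not for a role in cilia. Without these 7, 22 of 68 fell and the median was -0.17. In slices, fewer cells of a type and less RNA per cell cannot be told apart.

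Ccdc190, a coiled-coil protein, stood at 9.213, 9.004, 9.016 and 9.030 in CT12 Veh and at 8.30, 8.17, 8.29 and 8.08 in CT12 VIP. It fell by 0.85 (SE 0.0711, adjusted p = 1.5e-07) at the brightest of its 3 probes, while the others had differences of -0.18 and -0.15 and were not called. Fam216b fell from 8.89, 8.92, 8.90 and 8.73 to 8.003, 8.349, 8.190 and 8.036 (-0.71, SE 0.0778, adjusted p = 5.5e-06). For both genes the groups were apart. Ubxn10, which is needed for ciliogenesis, fell by 0.68 (SE 0.0737, adjusted p = 4.9e-06). Spef1, a microtubule-binding protein of the ciliary central apparatus, fell by 0.66 (SE 0.0788, adjusted p = 1.7e-05) at 1 of 2 probes, and the other probe had a difference of 0.00. Smim5, a small membrane protein, fell by 0.75 (SE 0.0669, adjusted p = 3.5e-07), from 8.05 to 8.15 in vehicle to 7.23 to 7.50 after VIP.

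The falls reached several parts of the cilium. Dnali1 and Dnah5, chains of axonemal dyneins, had differences of -0.39 (adjusted p = 0.00152) and -0.28 (adjusted p = 0.0236), and Dynlrb2, a dynein light chain, fell by 0.47 (SE 0.0748, adjusted p = 0.00047). Rsph1 and Rsph4a of the radial spokes differed by -0.36 and -0.27, Drc1 and Drc3 of the dynein regulatory complex by -0.30 and -0.34, and Ccdc39, which sets the spacing of these parts along the axoneme, by -0.29. Of the falls in this paragraph, those of Drc1, Ccdc39, Dnah5, Rsph4a and Rsph1 did not pass on neqc values (adjusted p = 0.0751 to 0.171), and each of these but Rsph1 was lost without CT12 Veh 1 (with an adjusted p of up to 0.134 over all single arrays left out). Ccdc113 stood at 8.62, 8.36, 8.27 and 8.25 in vehicle and at 7.73, 7.91, 7.84 and 7.82 after VIP (-0.55, SE 0.0787, adjusted p = 0.00015). The transcription factors of the ciliary programme did not pass. Foxj1 was detected on 2 vehicle arrays and on no CT12 VIP array (-0.14, adjusted p = 0.39), Rfx2 had a difference of -0.15 (adjusted p = 0.272) and Rfx3 of 0.05 (adjusted p = 0.847). The RFX motif GTTGCCA was in the promoters of 16 of 59 measured cilia genes (27.1%), of 3 of the 20 that fell (15%) and of 4.98% of all genes tested (4.38% of all promoters). None of the 24 measured genes of the primary cilium and Hedgehog signalling was called by limma (5 lower at an unadjusted p under 0.05; median -0.07).

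**Figure D3:**
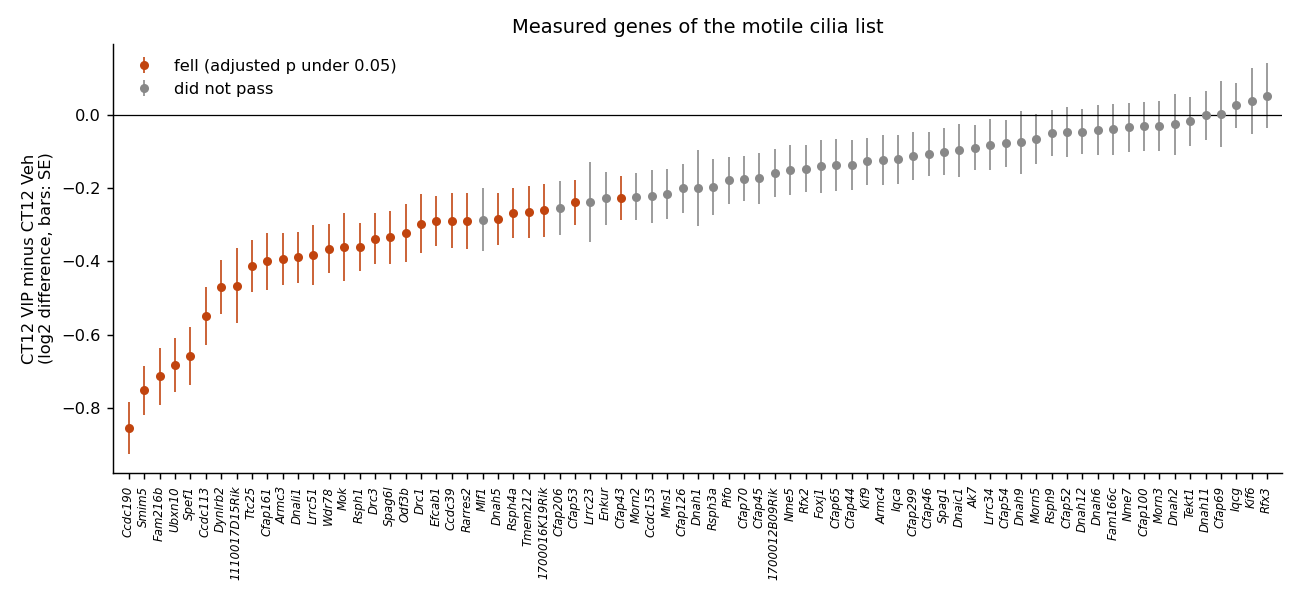
The 75 measured genes of the motile cilia list are ordered by their log2 difference (CT12 VIP minus CT12 Veh, vertical axis), with bars of 1 SE on each side. Orange points are the 29 that fell and grey points did not pass. The differences run from -0.85 for Ccdc190 to 0.05 for Rfx3.

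Against vehicle, the markers of ependymal cells were lower with the cilia genes, but those called overlapped the untreated CT10 arrays, as given below. Of 10 measured markers, 9 of which are also in the cilia list, 5 fell and 0 rose (median -0.25). These were Dynlrb2, Mia (-0.39, adjusted p = 0.032), Rsph1 (-0.36, adjusted p = 0.0016), Rarres2 (-0.29, adjusted p = 0.037) and Tmem212 (-0.26, adjusted p = 0.04). Rarres2 and Tmem212 had been named among the falls by the earlier analysis of the same data, and this count was not repeated without them. Mia, Rsph1, Rarres2 and Tmem212 did not pass on neqc values (adjusted p = 0.0795 to 0.275). Without single arrays, Mia was lost without CT12 Veh 1 or any CT12 VIP array, Rarres2 without any array but CT12 Veh 3, CT12 Veh 4 or CT12 VIP 2, and Tmem212 without any array but CT12 Veh 4 or CT12 VIP 4 (with an adjusted p of up to 0.0909, 0.125 and 0.127). The summed neqc signal of the 10 markers was 2523 to 3238 on the vehicle arrays and 1834 to 2086 on the CT12 VIP arrays. Their differences ran from -0.47 to -0.02, and 4 of the 10 were detected on all 8 arrays. The share of ependymal cells in each slice was not measured, so its part in the falls was not tested. Mean levels of the cilia list were 8.18, 8.10, 8.05 and 8.06 in CT12 Veh and 7.85, 7.88, 7.90 and 7.87 in CT12 VIP, so that the array with few detected probes was the highest in vehicle and the lowest after VIP. The count of 29 was 14 on neqc values, 13 with all 16 arrays in one fit, 18 without these 2 arrays and 17 without CT12 Veh 1, and the median was -0.16 without the 2 arrays and -0.46 on neqc values. The 5 ependymal calls became 1 on neqc values, 0 with all 16 arrays in one fit and 2 without the 2 arrays. They became 2 without CT12 Veh 1, CT12 VIP 1 or CT12 VIP 3, and 3 without CT12 Veh 2, CT12 VIP 2 or CT12 VIP 4.

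The markers of other cells had few calls. Of the 10 astrocyte markers 0 were called (1 lower at an unadjusted p under 0.05; median -0.03), and their summed neqc signal was 12100 to 13292 in vehicle and 12142 to 13070 after VIP. Neurons (1 of 13 rose, Nefl, a neurofilament, at least 1.02-fold), the oligodendrocyte lineage (1 of 10, Pdgfra, 0.63, adjusted p = 0.018), SCN tissue (1 of 9, Rora, 0.35, adjusted p = 0.023) and tanycytes (1 of 3, Vim, 0.30, adjusted p = 0.035) each had 1 call. Those of Pdgfra, Rora and Vim were lost on neqc values. That of Pdgfra was also lost without CT12 Veh 3 or CT12 VIP 4, that of Rora without any array but CT12 Veh 3, CT12 Veh 4 or CT12 VIP 1, and that of Vim without any array but CT12 Veh 4 or CT12 VIP 4 (with an adjusted p of up to 0.0683, 0.084 and 0.129). The tanycyte markers nevertheless separated the groups as a list. Their summed neqc signal was 355 to 459 in vehicle and 506 to 713 after VIP, and their mean level was 7.76 to 7.90 and 7.96 to 8.23, a difference of 0.20, but 3 of 10 listed genes were measured (Vim, Dio2 and Nes) and 1 was detected on all 8 arrays. Over the ependymal markers the same difference was -0.26. The endothelial and mural list had 2 measured genes and 0 calls by limma (0 at an unadjusted p under 0.05), so these cells were hardly covered. Of the 14 listed SCN markers, 9 were measured and 5 were detected on all 8 arrays, among them the defining neuropeptides Vip and Avp. Prok2, Six6, Syt10, Gabre and Vipr2, the gene of the VIP receptor VPAC2, were not among the measured genes.

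**Figure D4:**
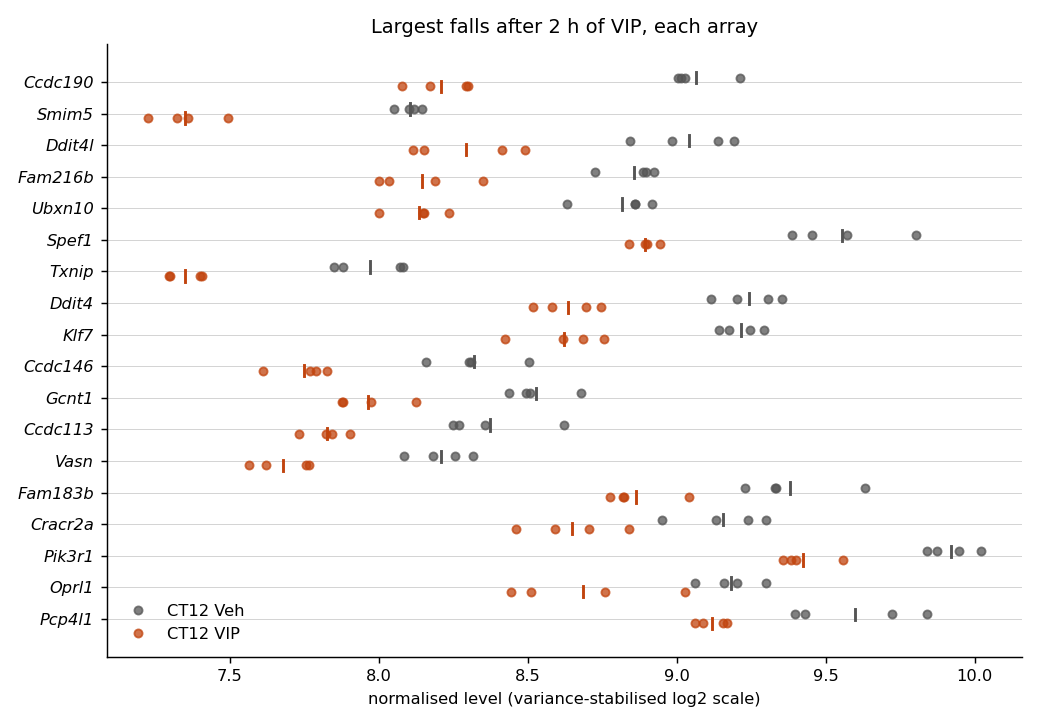
Each row is 1 of the 18 largest falls outside the immediate early, clock and Dusp genes. Points are the 4 arrays of CT12 Veh (grey) and of CT12 VIP (orange), vertical bars are group means, and the horizontal axis is the normalised level on a variance-stabilised log2 scale. In every row all 4 CT12 VIP arrays lie to the left of all 4 vehicle arrays, because only genes with groups that do not overlap were eligible. The distances are smaller than among the largest rises.

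Some brakes on growth signalling were among the other falls. The kinase complex mTORC1 promotes protein synthesis and cell growth, and stress-induced proteins such as Ddit4 (Redd1) hold it back. Of 25 measured mTORC1 brakes and insulin- and FoxO-linked genes, 5 fell (20%) and 2 rose (8%), against 2.02% and 2.84% of all genes (median -0.06). These counts were 3 and 1 on neqc values and without the 2 arrays under 10000 detected probes. Ddit4 stood at 9.20, 9.11, 9.31 and 9.35 in CT12 Veh and at 8.52, 8.75, 8.58 and 8.70 in CT12 VIP, a fall of 0.61 (SE 0.0719, adjusted p = 1.5e-05). Its paralogue Ddit4l was lower by a similar amount, with 8.99, 8.84, 9.14 and 9.19 against 8.15, 8.12, 8.49 and 8.41 (-0.75, SE 0.091, adjusted p = 2.2e-05). Txnip, which restrains thioredoxin and glucose uptake, was detected on all 4 vehicle arrays and on no CT12 VIP array, at least 1.32-fold lower (adjusted p = 8.6e-06). Klf9, a Kruppel-like factor, and Sesn1, a sestrin that restrains mTORC1, differed by -0.30 (adjusted p = 0.00674) and -0.33 (adjusted p = 0.0325). Irs2, an adaptor of insulin and IGF receptors, moved the other way, from no detected vehicle array (7.45, 7.39, 7.56 and 7.53) to 8.42, 8.44, 8.35 and 8.11, at least 1.64-fold higher (adjusted p = 3.6e-07), and Igfbp3, an IGF-binding protein, had a difference of 0.31 (adjusted p = 0.0322). The calls of Klf9, Sesn1 and Igfbp3 were lost on neqc values, that of Sesn1 also without any array but CT12 Veh 2 or CT12 VIP 3, and that of Igfbp3 without any array but CT12 Veh 2 or CT12 VIP 4 (with an adjusted p of up to 0.129). Foxo1, Foxo3, Tsc1, Tsc2 and Sesn2 had differences between -0.12 and 0.21 and did not pass.

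The other large falls were of diverse genes. Klf7, a Kruppel-like transcription factor, fell by 0.59 (SE 0.0734, adjusted p = 2.5e-05) from 9.29, 9.14, 9.18 and 9.25 to 8.43, 8.76, 8.69 and 8.62. Pik3r1, the p85 regulatory subunit of PI3 kinase, fell by 0.50 (SE 0.0674, adjusted p = 8e-05), and its other 3 probes fell with differences between -0.46 and -0.26. Gcnt1, a glycosyltransferase, fell by 0.57 at its brighter probe, with -0.26 at the other, and Vasn, the TGF-beta-binding protein vasorin, by 0.53 (SE 0.0706, adjusted p = 5.9e-05). Cracr2a, a calcium sensor of store-operated entry, fell by 0.51 (SE 0.086, adjusted p = 0.00094) at its brighter probe, and its other probe was called with -0.58. Oprl1, the receptor for nociceptin, fell by 0.50 (SE 0.0994, adjusted p = 0.0046) for 1 probe of 3, from 9.06, 9.20, 9.30 and 9.16 to 8.51, 9.03, 8.45 and 8.76. CT12 VIP 2 came close to the vehicle arrays, and the other 2 probes had differences of -0.05 and -0.02. Pcp4l1 fell by 0.48 (SE 0.0863, adjusted p = 0.0016). The calls of Oprl1 and Pcp4l1 were lost on neqc values (adjusted p = 0.099 and 0.071). Ccdc146, a coiled-coil protein, and Fam183b differed by -0.57 and -0.52 (adjusted p = 5.9e-05 and 0.00056). The locus of Ccdc146 overlaps that of Fgl2, which was detected on 0 vehicle arrays and 2 CT12 VIP arrays and rose (adjusted p = 0.00261).

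The levels of 8 of these genes were also set side by side in all 4 groups, on values that the authors normalised over the 16 arrays and without a test. Adamts1 was at 7.88 ± 0.149 in CT10 and 8.15 ± 0.282 in CT12 Veh (SD, n = 4), against 10.17 ± 0.0322 in CT12 VIP and 8.92 ± 0.0706 in CT16 VIP. The untreated and the vehicle slices thus lay close together and both VIP groups above them. Ddit4 was at 9.21 ± 0.212 and 9.27 ± 0.106 in these control groups and at 8.67 ± 0.102 and 8.70 ± 0.195 after VIP. Its paralogue Ddit4l did not stay low. It was at 8.88 ± 0.250 in CT10, 9.07 ± 0.157 in CT12 Veh and 8.33 ± 0.183 in CT12 VIP. In CT16 VIP it was at 9.99 ± 0.187, above every array of both control groups. Ccdc190 was at 9.22 ± 0.113 and 9.09 ± 0.099, against 8.25 ± 0.102 and 7.99 ± 0.052. Spef1 was less distinct, with 9.30 ± 0.142 in CT10 and 9.58 ± 0.179 in CT12 Veh, 8.92 ± 0.0434 in CT12 VIP and 8.49 to 9.46 on the CT16 VIP arrays, which overlapped both control groups (9.16 to 9.45 and 9.41 to 9.82). The CT16 VIP slices differ from the others both in hours since VIP and in circadian time. For the 5 ependymal markers that fell, the CT12 VIP arrays overlapped the CT10 arrays, and CT12 Veh had the highest mean of the 4 groups. Rarres2 was at 9.35 ± 0.338 in CT10, 9.66 ± 0.163 in CT12 Veh and 9.38 ± 0.0625 in CT12 VIP. Some other falls, among them Oprl1, Cracr2a and the cilia genes Fam216b and Ccdc113, also overlapped CT10. Fam216b reached 8.39 on the highest CT12 VIP array against 8.30 on the lowest CT10 array, and Ccdc113 reached 7.96 against 7.93. Ccdc190, Spef1, Ubxn10 and Smim5 did not overlap CT10. The falls above are therefore differences from vehicle, and not all of them are differences from untreated slices.

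**Figure D5:**
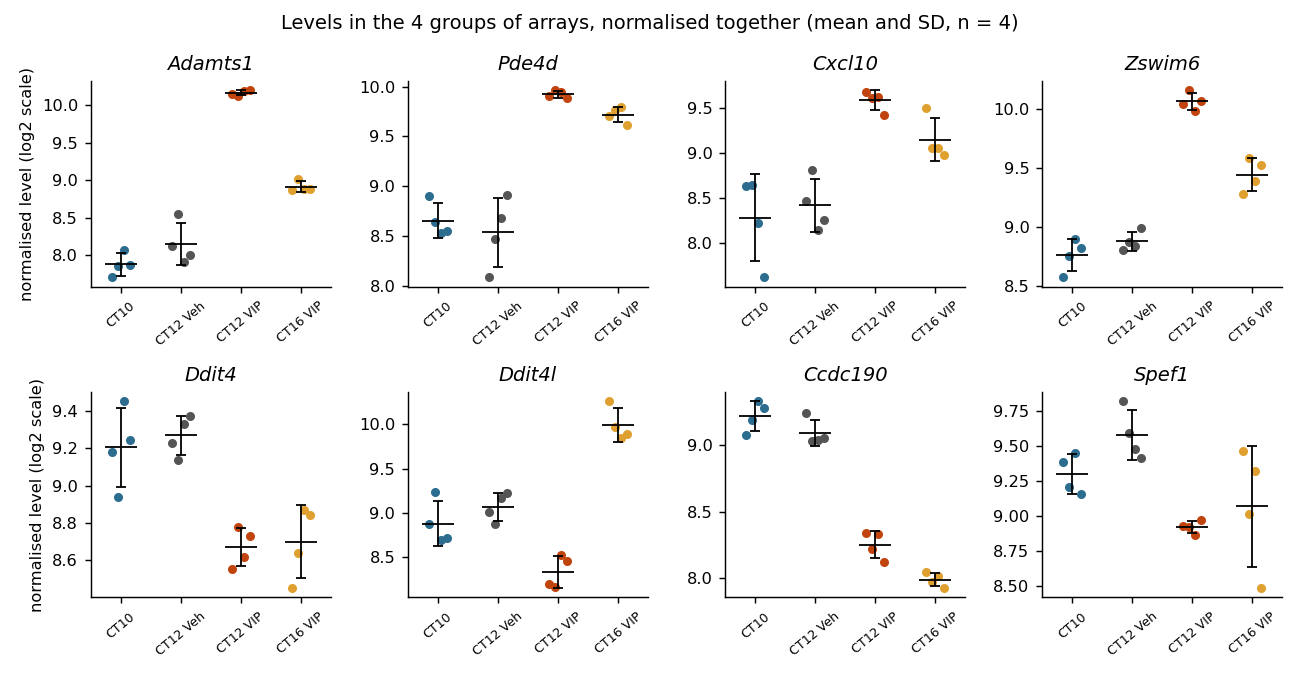
The panels show 8 genes in the 4 groups of arrays, with points for single arrays and bars for the mean and SD (n = 4). The vertical axis is the level on the log2 scale after normalisation of all 16 arrays together, and it has its own range in each panel. In all 8 panels the CT12 VIP arrays lie apart from the CT10 and the CT12 Veh arrays, which does not hold for every fall described.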

How the data were processed

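RNA of the CT12 VIP and CT12 Veh slices, 4 of each by their labels, was measured on Illumina MouseWG-6 v2 arrays. The deposited raw values are bead intensities per probe, without normalisation, with deposited detection p-values against the negative controls of each array. The authors made the log2-like values from them with lumi (version not stated), which kept a probe that at least 1 array detected (p up to 0.01), stabilised the variance and equalised the quantiles, once for these 8 arrays (17605 probes) and once for all 16. The table that pairs the VIP groups with each other was not used.

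The fit used limma 3.58.1 in R 4.3.3, 4 arrays against 4, 2-sided, without covariates, with Benjamini-Hochberg adjustment over 17605 probes at 0.05. Of these, 14925 were named through the platform and RefSeq tables and stand for 9619 genes. The 33 gene lists, 8 marker lists and 6 motifs were chosen with earlier results of these data known, so no list is independent of them and none was tested as a set. The named genes are the 18 with the largest rise and the 18 with the largest fall among those past the threshold with arrays that do not overlap, outside 3 lists (immediate early, clock and dual specificity phosphatase genes), the 3 members of each list with the largest change, and the called markers. Genes named beyond this rule were chosen after their values were seen. Promoters and gene neighbours came from RefSeq (GRCm38.p6), and levels in summed form from neqc values.

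On simulated data for these 17605 probes, with 100 changed probes of each size, 95% of changes of 0.5 and 100% of changes of 1 were recovered, with 7.14% of calls false. The simulated noise was independent and equal on all arrays. It therefore cannot show the effect of the 2 arrays under 10000 detected probes, of dim probes or of variation shared by probes. Smaller changes were not simulated, whereas the median fall was -0.31 and 15 genes fell by more than 0.5. The number of arrays limits the precision. The alternatives were neqc with and without the filter, log2 quantile values without background correction, the values normalised over 16 arrays, stricter detection, all 16 arrays in one fit, the replicate block, array weights, the mean of a gene's probes and leaving out each array. After the data were seen, the fits without the 2 arrays under 10000 detected probes, with detected probes per array as a term, and the cilia count without 7 genes were added.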

Additional observations from a re-analysis of the deposited data

Results flagged for a closer look

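In 13 of the 180 groups of 4 arrays examined, 1 array stood apart from the other 3, in that its gap to the nearest array took more of the group's range than Dixon's limit for 4 samples. Chance alone marks about 1 in 20 such groups. In CT12 Veh, array 1 lay above the others for Ccdc190 (9.21, nearest 9.03, gap 0.875 of the range), Sik2 (7.40, nearest 7.31, 0.8904) and Mia (8.61, nearest 8.09, 0.8725), and below them for Btg1 (8.92, nearest 9.45, 0.9102). Array 2 of CT12 Veh lay above the others for Cebpb (7.62, nearest 7.33, 0.8517) and Tnfaip3 (7.43, nearest 7.21, 0.8816). Array 3 of CT12 Veh lay below for Ccn1 (7.31, nearest 7.56, 0.8535) and array 4 for Dynlrb2 (8.93, nearest 9.23, 0.8553). In CT12 VIP, array 1 lay above the others for Pde4b (8.84, nearest 8.70, 0.8716) and below them for Mia (7.66, nearest 7.84, 0.8344), array 2 below for Dusp14 (8.28, nearest 8.43, 0.8291), array 3 above for Zfp36l1 (10.11, nearest 9.98, 0.8982) and array 4 below for Klf4 (8.85, nearest 9.17, 0.8683).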

How the results depend on the processing

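The rises depended less on the processing than the falls. The counts of probes (480 higher, 258 lower) became 314 and 75 on neqc values without a filter, where 45281 probes were tested. The 258 lower probes became 115 on neqc values, 96 with all 16 arrays in one fit and 142 without the 2 arrays under 10000 detected probes, and the cause was not tested. Leaving out 1 array gave 386 to 438 higher and 159 to 221 lower probes, fewest lower without CT12 VIP 2 (159) and CT12 VIP 4 (162). The 273 genes that rose became 169 on neqc values without a filter. The 194 that fell became 80 on neqc values, 50 without a filter, 74 with all 16 arrays and 106 without the 2 arrays. Leaving out 1 array gave 221 to 258 genes that rose and 121 to 171 that fell, with 121 and 126 falls without CT12 VIP 2 and CT12 VIP 4. The replicate number as a block gave 546 higher and 324 lower probes and changed no call of the 90 named genes; the numbers do not pair the samples, as same-numbered arrays deviated with correlations of 0.26, -0.086, 0.0045 and 0.092. No named gene changed direction under any setting, and 70 of the 90 kept their call in all settings in which they were measured. The 20 others lost it in 1 to 13 settings, 15 of them on neqc values and 12 with all 16 arrays in one fit. The signal over background limits dim genes, of which 54 that rose had no detected vehicle array.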

Other observations

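Of the changed genes, 177 rises and 153 falls belonged to no list. The genes given here were picked from them after their values were seen. How many others of their kind were measured was not counted. Aff1, a subunit of elongation complexes of RNA polymerase II, and Ccnl1, a cyclin linked to splicing, rose by 1.08 and 1.03 (adjusted p = 2.1e-08 and 2.56e-09). The splicing regulator Ptbp1 rose by 0.85 (SE 0.0633, adjusted p = 3.32e-08), and Ythdc1, a nuclear reader of methylated adenosine in RNA, by 0.64 (SE 0.0742, adjusted p = 1.33e-05). Usp2, a deubiquitinase, rose by 0.87 (SE 0.0638, adjusted p = 2.88e-08). Rfx4, a transcription factor of the RFX family, and Fgfr2, a receptor of fibroblast growth factors, rose by 0.89 and 0.71 (adjusted p = 4.33e-08 and 0.000101).

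The receptors of sphingosine 1-phosphate S1pr3 and S1pr2 rose by 0.53 (adjusted p = 0.000164) and 0.34 (adjusted p = 0.00507), and Sphk1, the kinase that makes this lipid, was at least 1.05-fold higher (adjusted p = 0.00466). The call of S1pr2 was lost on neqc values (adjusted p = 0.0776). Hdc, which makes histamine, and Mlst8, a subunit of the mTOR complexes, differed by -0.38 (adjusted p = 0.000556) and -0.43 (adjusted p = 0.000665), and the call of Hdc was lost on neqc values (adjusted p = 0.0831). Daw1, Ttll3 and Cfap20, genes of cilia outside the list, differed by -0.47, -0.42 and -0.39 (adjusted p = 0.000112, 0.00125 and 0.00369). Of the genes that rose, 116 had several probes, and for 51 of these no other probe was called, against 55 of 74 among those that fell.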
